A study of Mus musculus with 41 samples.

Results

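The 10 genes described here mark T cells and cytotoxic lymphocytes, and their RNA was measured in 41 mammary tumors of the mouse. They were chosen by name: Cd3e, Cd3d, Cd3g, Cd4, Cd8a, Foxp3, Gzmb, Prf1, Il2rb and Nkg7. All 10 had a probe on the array, among 30175 named genes, and all 10 were among the 20886 genes bright enough to be tested. Each tumor had grown from Trp53-null mammary duct tissue of female BALB/c donors, placed in the cleared mammary fat pads of wild-type female BALB/c mice at weaning age, so that the hosts had their own lymphocytes. The hosts ate a low fat diet for life (LFD), a high fat diet rich in saturated animal fat for life (HFD), the high fat diet through puberty only (HFD-LFD) or in adulthood only (LFD-HFD). Epithelial tumors numbered 29 (8 LFD, 8 HFD, 7 HFD-LFD and 6 LFD-HFD), and 14 of them had arisen early, within the first year, while 15 had arisen late. The other 12 were poorly differentiated spindle cell carcinomas, 3 per regimen, of which 3 were early and 9 late.

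T cells recognise peptides through a receptor whose signals pass into the cell by the CD3 chains. Helper T cells carry the co-receptor CD4, killer T cells carry CD8, and regulatory T cells are governed by the transcription factor Foxp3. Killer T cells and natural killer cells destroy their targets by releasing perforin, a pore-forming protein encoded by Prf1, together with granzymes, of which granzyme B (Gzmb) is a serine protease that starts apoptosis. In mammary tumors such cells are a minor part of the tissue, scattered through the stroma or gathered in aggregates.

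Every value is a log2 ratio of the tumor's signal (Cy5) to that of a common reference, an RNA pool of 11 mouse cell lines (Cy3), on the same array. A ratio of 1 is a doubling over the reference, and ratios of different genes cannot be ranked as levels, because the reference holds a different amount of each. The direction follows the dye labels of the samples. The written methods of the study assign the dyes the other way round, so the Y-linked genes Ddx3y and Eif2s3y, which female tumors lack, were read as a check. Both were brighter in Cy3 on 41 of 41 arrays, with log2 ratios of -7.64 to -3.90 and -8.65 to -2.59. In RNA from whole tumors, fewer T cells and less RNA per T cell cannot be told apart.

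Some arrays stood apart. Tumors are named by their labels, which the figures shorten by the letters MSU. Tumors MSU_42L4B and MSU_60L shared a slide and a scan session of their own, and 20.9% of the spots of MSU_60L were flagged as outliers. The matrix of processed values assigned to tumors MSU_40R4A, MSU_57R and MSU_65R matched the scanner output of MSU_57R, MSU_65R and MSU_40R4A in turn, so the labels of these 3 HFD tumors are in doubt, and 2 of them are the highest tumors for most genes below. All 12 spindle cell arrays were scanned in a session of their own, on 3 slides and a separate scanner, and nothing here can tell histology and scan session apart. Of the 8 slides with epithelial tumors, 7 held a single regimen and only 3 held both early and late tumors. The labels do not say whether tumors sharing a label number, as 3 pairs do, came from the same mouse, so p-values measure the spread between these samples.

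The 3 CD3 chains, which T cells share, are described first. In the tumor channel, Cd3e and Cd3d passed the scanner software's test of being well above background on 41 of 41 arrays and Cd3g on 37, so T cell RNA was detectable in every tumor. All lie together on chromosome 9, where the start sites of Cd3g and Cd3d are 1355 bases apart on opposite strands and that of Cd3e lies 27.8 kb beyond. The 250 bases before the start site of each are shown here because these neighbours moved together, as described next. They come from the RefSeq promoter table of build GRCm38.p6, at chr9:45009612-45009861 (minus strand) for Cd3e, chr9:44981536-44981785 (plus) for Cd3d and chr9:44980432-44980681 (minus) for Cd3g. Capitals mark the letters AGGAAG, read on either strand, a core bound by Ets family factors.
Cd3e: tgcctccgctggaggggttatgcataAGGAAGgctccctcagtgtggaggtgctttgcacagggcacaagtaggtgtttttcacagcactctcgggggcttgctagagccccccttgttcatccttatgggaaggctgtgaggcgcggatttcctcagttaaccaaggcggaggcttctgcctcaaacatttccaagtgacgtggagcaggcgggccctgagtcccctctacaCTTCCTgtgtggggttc
Cd3d: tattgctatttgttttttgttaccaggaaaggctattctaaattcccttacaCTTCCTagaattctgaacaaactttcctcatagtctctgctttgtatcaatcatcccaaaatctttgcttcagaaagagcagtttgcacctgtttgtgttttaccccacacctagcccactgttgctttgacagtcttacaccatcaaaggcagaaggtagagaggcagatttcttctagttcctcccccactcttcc
Cd3g: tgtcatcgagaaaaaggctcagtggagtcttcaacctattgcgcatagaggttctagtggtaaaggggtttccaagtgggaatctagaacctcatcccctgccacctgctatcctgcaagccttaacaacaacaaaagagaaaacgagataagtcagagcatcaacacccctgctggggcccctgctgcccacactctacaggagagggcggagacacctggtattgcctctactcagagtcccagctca
The letters occurred at 2 places before Cd3e, at 1 before Cd3d and at 0 before Cd3g, against 29.5% of 32851 RefSeq promoters of the same length with at least 1. The Runx core TGTGGT was in none of the 3 windows and in 14% of all promoters. These counts describe the windows only. Promoter sequence was in the table for 8 of the 10 genes, the others being Cd4 and Il2rb.

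Among epithelial tumors the CD3 genes spread widely. Cd3g ran from -3.41 in MSU_82L through a median of 0.62 to 3.36 in MSU_40R4A. Cd3d ran from -2.53 in MSU_117L through -0.67 to 3.02 in MSU_57R. Cd3e, encoding the chain with which antibodies to CD3 usually react, ran from -0.75 through 0.17 to 2.55, again in MSU_57R. The standard deviation over the 29 tumors was 1.51 for Cd3g, 1.48 for Cd8a and 1.45 for Cd3d, against 0.56 for the median gene tested, and 97% of genes varied less than these. Prf1 (0.43) and Nkg7 (0.52), which encodes a membrane protein of cytotoxic granules, varied less than the median gene.

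A few tumors carried most of the high values. Tumors MSU_40R4A (HFD, early) and MSU_57R (HFD, late) were each among the 3 highest epithelial tumors for 8 of the 10 genes, and MSU_101L4A (LFD-HFD, late) for 5. In MSU_57R the log2 ratios were 2.55 for Cd3e, 3.02 for Cd3d, 3.22 for Cd3g, 1.66 for Cd4 and 2.39 for Cd8a. In MSU_40R4A they were 2.19, 2.28, 3.36, 1.23 and 2.56 in the same order. At the other end, MSU_13L was among the 3 lowest for 6 genes and MSU_82L for 5. Tumor MSU_60L broke the pattern, with Cd3g at 3.25 beside Cd3d at -1.98, on the array with the outlier spots. Among spindle cell tumors, MSU_M86R and MSU_M129L were among the 3 highest for 9 genes each and MSU_M18L among the 3 lowest for 9.

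**Figure D1:**
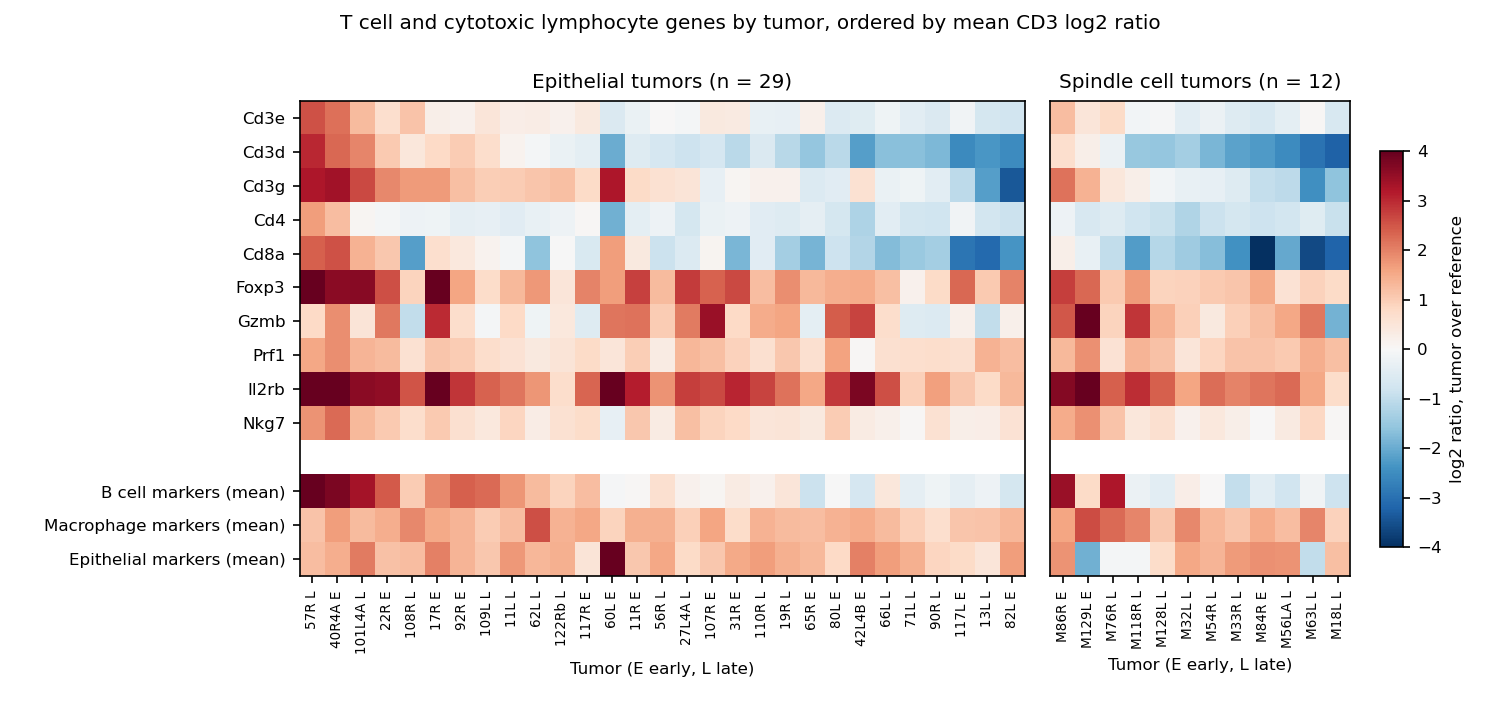
Log2 ratio of tumor over reference (color, scale limited to -4 to 4) for the 10 genes and the means of B cell, macrophage and epithelial marker lists, in 29 epithelial and 12 spindle cell tumors ordered by their mean CD3 ratio (E early, L late). The CD3 genes, Cd8a and the B cell markers fade together from left to right, while Gzmb, Prf1 and the macrophage markers of the epithelial tumors follow that order less.

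The T cell genes varied together from tumor to tumor. Over the 29 epithelial tumors Cd3e and Cd3d had Pearson r = 0.877 and Spearman rho = 0.827 (permutation p = 1e-05, the smallest possible, and 2e-05; adjusted over 45 pairs, 6.43e-05 and 0.000225), and r = 0.811 without MSU_40R4A and MSU_57R, the 2 tumors farthest from the median. Cd3d and Cd3g had r = 0.762 and rho = 0.782 (permutation p = 1e-05 for both, adjusted 6.43e-05 and 0.00015) and r = 0.676 without the same 2. Across the 27 arrays of the main scan session the 2 correlations were 0.868 and 0.926, and across the 12 spindle cell tumors 0.85 and 0.951. Of all 45 pairs of the 10 genes, 35 had an adjusted p of r under 0.05, with a median r of 0.557. No share over pairs of all genes is given here. All genes tested had a median r of -0.03 with the mean of the 3 CD3 genes, and 0.656% had an r over 0.7. All values of a tumor come from 1 array.

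Both co-receptor genes followed CD3 genes, some chains more closely than others, while the relation between them depended on which arrays were kept. Cd3e and Cd4 had r = 0.881 and rho = 0.856 (permutation p = 1e-05 for both, adjusted 6.43e-05 and 0.00015), and r = 0.705 without MSU_40R4A and MSU_57R. With Cd3d the r of Cd4 was 0.766, and with Cd3g it was 0.410. The 2 probes of Cd4 followed each other only weakly (r = 0.324 in epithelial and 0.204 in spindle cell tumors), so the Cd4 values hold for its brighter probe. Cd3g and Cd8a had r = 0.826 and rho = 0.769 (permutation p = 1e-05 for both, adjusted 6.43e-05 and 0.00015), and 0.821 without MSU_13L and MSU_82L. With Cd3d the r of Cd8a was 0.760. With Cd3e it was 0.606, and 0.329 without MSU_40R4A and MSU_57R. Between Cd4 and Cd8a r was 0.427 and rho 0.366 (permutation p = 0.019 and 0.0512, adjusted 0.0264 and 0.076). It was -0.01 for r without MSU_40R4A and MSU_57R but with MSU_60L kept. Over the 27 arrays of the main scan session, which leave out MSU_60L with its outlier spots (Cd4 -1.91, Cd8a 1.66) and MSU_42L4B, r was 0.684. Those 27 arrays keep MSU_40R4A and MSU_57R, and leaving out both kinds of array at once was not tested. Over the 12 spindle cell tumors r was 0.315.

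In epithelial tumors no relation of Gzmb with Cd3e was found. Its r with Cd3e was -0.01 and rho 0.02 (permutation p = 0.952 and 0.923, adjusted 0.952 and 0.966), and -0.12 without MSU_40R4A and MSU_57R. Of its 6 pairs with the CD3 genes, Cd4, Cd8a and Foxp3, 2 had an adjusted p of r under 0.05. With Cd8a r was 0.497 and rho 0.561 (permutation p = 0.00629 and 0.00202, adjusted 0.0109 and 0.00535). With Foxp3 r was 0.481 and rho 0.529 (permutation p = 0.00821 and 0.00359, adjusted 0.0127 and 0.00808). In the 12 spindle cell tumors the r of Gzmb was 0.522 with Cd3e, 0.594 with Cd3d and 0.529 with Cd3g. Its closest partner was Il2rb, the beta chain of the receptors for interleukins that expand killer and natural killer cells. With it r was 0.65 and rho 0.694 (permutation p = 0.00021 and 0.0001, adjusted 0.000591 and 0.0005), and r was 0.661 without MSU_107R and MSU_17R. Prf1, though encoding the partner of granzyme B in target killing, had r = 0.237 and rho = 0.188 with Gzmb (permutation p = 0.216 and 0.328, adjusted 0.237 and 0.369), and 0.182 without MSU_107R and MSU_17R, 0.455 over the main scan session and 0.552 in spindle cell tumors. Prf1 and Nkg7 had r = 0.741 and rho = 0.654 (permutation p = 3e-05 and 0.00015, adjusted 0.000104 and 0.000614), and 0.663 without MSU_40R4A and MSU_80L, beside 0.432 in spindle cell tumors. The 2 probes of Nkg7 had r = 0.409 with each other in epithelial and 0.834 in spindle cell tumors, and the brighter was used.

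Among the genes whose pattern was most like the mean of the 3 CD3 genes, each scaled to unit spread over the epithelial tumors, were a transcript named on the array only as ENSMUST00000103291 (r = 0.949) and Zap70 (0.943), the kinase that binds the activated CD3 chains. Others were ENSMUST00000103299 (0.934), Ptprcap (0.930), which encodes a partner of the leukocyte phosphatase CD45, and Itgb7 (0.918), a homing integrin chain. Hmha1 (0.905), Tbc1d10c (0.893), Crtam (0.892) and Skap1 (0.891) were also alike. Without the 3 highest tumors these 9 ran from 0.748 to 0.891. In the spindle cell tumors 8 of them ran from 0.772 to 0.970 and Itgb7 was at 0.306. Over all genes tested the median r in epithelial tumors was -0.03, and 0.656% of genes had an r over 0.7.

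Markers of other cells moved with the CD3 genes. Of 9 B cell markers on the array, 6 were bright enough to be tested. The mean of these 6 had r = 0.918 with the CD3 mean in the 29 epithelial tumors and 0.853 in the 12 spindle cell tumors. Without MSU_40R4A and MSU_57R the r in epithelial tumors was 0.861. The B cell mean ran from -0.85 to 4.12 over the epithelial tumors. Highest were MSU_57R (4.12), MSU_40R4A (3.77) and MSU_101L4A (3.31), the same 3 tumors as for CD3. The means of the lymph node stroma list (r = 0.837) and the dendritic cell list (0.731) also moved with the CD3 mean. One and the same gene, Cr2, stands in both the B cell and the lymph node lists. Macrophage markers (0.261), epithelial markers (0.105) and the list of other cytotoxic and natural killer genes (0.337, and 0.081 without the 2 tumors) had lower values in the epithelial tumors. In the 12 spindle cell tumors r was 0.540 for the macrophage, -0.25 for the epithelial and 0.733 for the cytotoxic and natural killer list. Single genes within the lists differed. Over the epithelial tumors their r ran from -0.02 to 0.89 in the B cell list and from 0.31 to 0.84 in the lymph node stroma list. It ran from 0.02 to 0.79 for the 5 genes tested of 8 in the dendritic cell list. In the cytotoxic and natural killer list it ran from -0.35 to 0.80. The part of the cells marked by these lists in the CD3 values was not tested. No p is given for these values, which describe selected genes and their means.

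**Figure D2:**
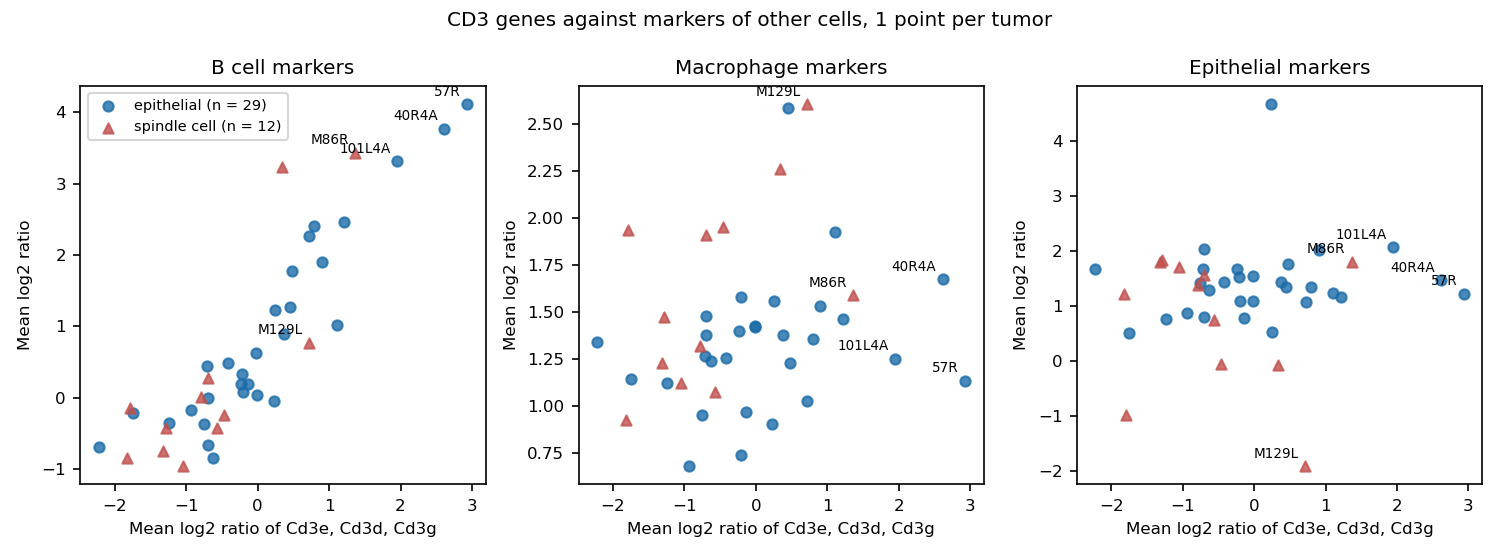
Mean log2 ratio of B cell, macrophage and epithelial markers (y axes) against the mean log2 ratio of Cd3e, Cd3d and Cd3g (x axis), 1 point per tumor, circles for 29 epithelial and triangles for 12 spindle cell tumors. The B cell mean climbs with the CD3 mean up to MSU_57R, at 2.93 and 4.12, whereas the macrophage and epithelial means of the epithelial tumors show no such line.

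Early and late epithelial tumors were compared to see whether time of onset altered these genes. None of the 10 passed the test (limma, adjusted p under 0.10), where 0.144% of all genes did, 30 of 20886. SAM, the test named in the methods, called 434 genes and none of the 10. At an unadjusted p under 0.05 stood 2 of the 10, both higher in early tumors, against 13.2% of all genes. The median difference of the 10 was 0.13, beside 0.01 for all genes.

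Gzmb, Il2rb and Foxp3 had the largest differences of the 10. Gzmb ran from -0.52 through a median of 1.99 to 3.44 in early tumors and from -0.98 through 0.51 to 2.08 in late tumors, so the groups overlapped, although the 7 highest tumors were all early. The means were 1.49 ± 1.29 (SD, n = 14) and 0.41 ± 0.94 (n = 15), a difference of 1.08 (SE 0.40, limma p = 0.0107, adjusted p = 0.251). Il2rb was at 2.92 ± 1.07 and 2.17 ± 0.96, a difference of 0.74 (SE 0.36, limma adjusted p = 0.373). The study picked Il2rb in its comparison of onset in these same tumors, so Il2rb gives no independent evidence. The study listed it under down-regulated functions of early against late tumors, the opposite direction to the means here. Foxp3 was at 2.28 ± 0.86 and 1.56 ± 1.16, a difference of 0.72 (SE 0.37, adjusted p = 0.396).

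The CD3 and co-receptor genes had intervals that spanned 0 in both directions. Differences between early and late tumors were -0.11 for Cd3e (95% interval -0.70 to 0.47), -0.36 for Cd3d (-1.41 to 0.70), -0.12 for Cd3g (-1.23 to 0.99), -0.10 for Cd4 (-0.58 to 0.38) and 0.39 for Cd8a (-0.69 to 1.46). Those of Prf1 and Nkg7 were 0.14 (-0.19 to 0.48) and 0.12 (-0.28 to 0.52). These intervals leave room for differences of more than a doubling in at least 1 direction for Cd3d, Cd3g and Cd8a. On their second probes the differences were 0.15 for Cd4, 0.33 for Cd8a and 0.56 for Nkg7.

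Onset went with the slide. With slide as a fixed term the difference was 0.52 for Gzmb, 0.02 for Foxp3 and 0.04 for Il2rb (adjusted p = 0.870, 0.997 and 0.993). Within the 3 slides that held both kinds of tumor, Gzmb was higher in early tumors by 1.14 and 0.39 on 2 slides. It differed by -0.0037 on the remaining slide, which held MSU_66L and the 3 tumors whose labels are in doubt. Gzmb there was 1.87 in MSU_40R4A and -0.38 in MSU_65R (early). It was 0.80 in MSU_57R and 0.70 in MSU_66L (late). The differences within slides and with slide as a fixed term therefore depend on these labels. Neither was tested with the labels exchanged. In the fit without a slide term, the labels of MSU_40R4A, MSU_57R and MSU_65R were exchanged as in the processed matrix. The differences were then 1.25 for Gzmb and 1.14 for Foxp3 (adjusted p = 0.250 and 0.216), and the adjusted p of Il2rb was 0.234. Without those 3 tumors the differences were 1.24 for Gzmb, 0.89 for Foxp3 and 0.88 for Il2rb (adjusted p = 0.257, 0.292 and 0.324). Without MSU_42L4B and MSU_60L, which leaves 1 scan session, they were 0.93, 0.84 and 0.57. Of 22 other cytotoxic and natural killer genes on the array, 10 were bright enough to be tested. The listed receptor genes of natural killer cells were not among these 10. None of the 10 passed, with 8 higher in early tumors and a median difference of 0.45. Of 22 T cell receptor and signalling genes on the array, 19 were tested. None of them passed and 11 were higher in early tumors.

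**Figure D3:**
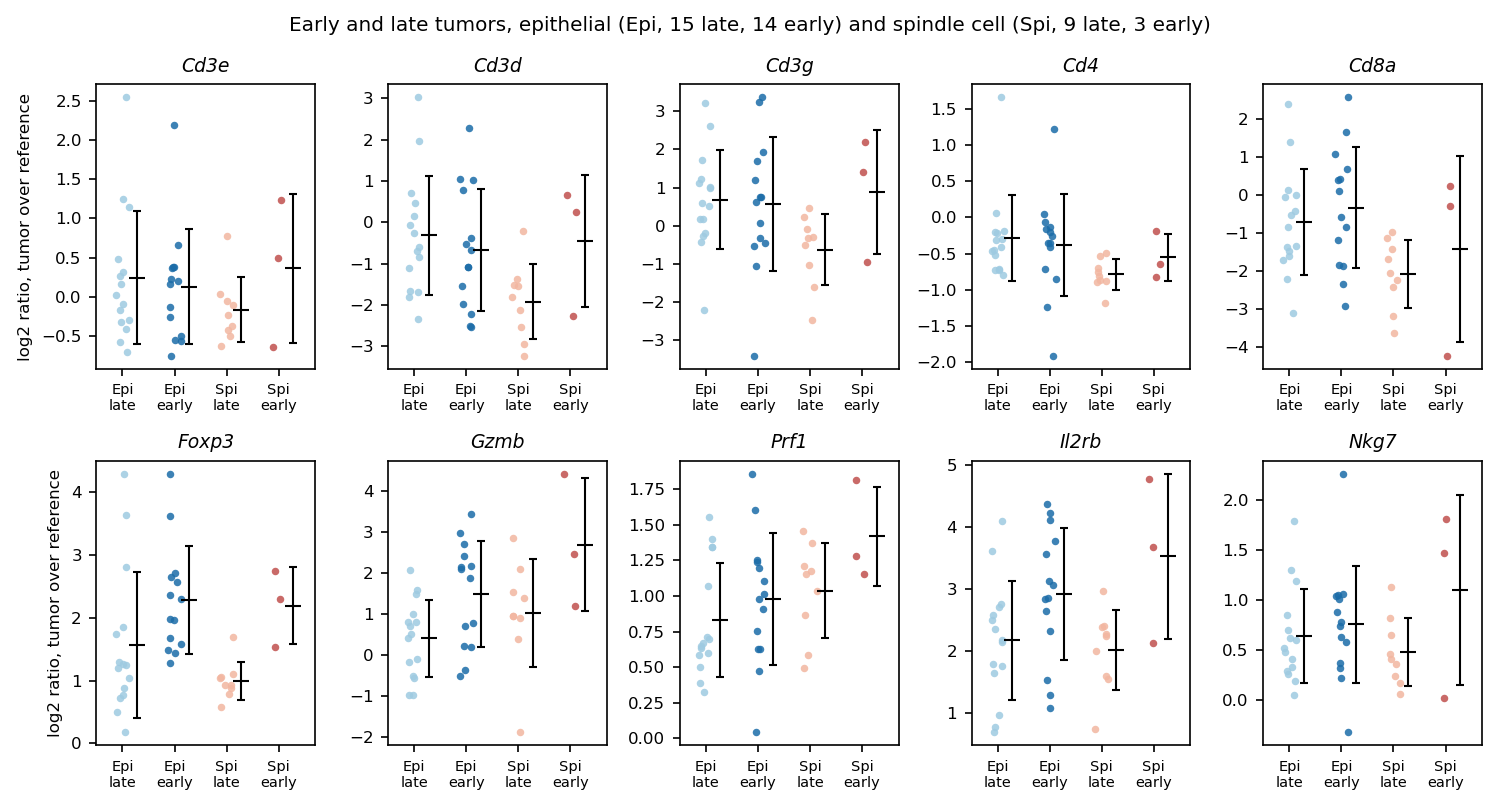
Log2 ratio of tumor over reference for each gene in late and early tumors, epithelial (15 and 14) and spindle cell (9 and 3), with 1 point per tumor and bars for the mean and SD. Early and late points overlap for all 10 genes in epithelial tumors. Foxp3 of the early spindle cell tumors lies toward the upper end, as does Il2rb of MSU_M129L and MSU_M86R but not of MSU_M84R (2.13).

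In spindle cell tumors all 10 genes were higher in the 3 early tumors than in the 9 late ones, yet none passed the test. Under the alternatives listed below, 1 of 110 values changed sign, that of Cd8a (-0.18). No gene of 20883 had an adjusted p under 0.10 (limma, 0% called), and 2.03%, 423 genes, had an unadjusted p under 0.05, among them 4 of the 10. The median difference of the 10 was 0.93, beside -0.02 for all genes. These differences come from 2 tumors for most genes. Foxp3 was 2.75 in MSU_M86R, 2.30 in MSU_M129L and 1.53 in MSU_M84R, and ran from 0.58 through 0.93 to 1.69 in late tumors, so the groups overlapped at MSU_M118R alone (1.69). The difference was 1.20 (SE 0.27, limma adjusted p = 1). Foxp3 was higher in the early tumor on each of 3 slides, by 0.62 to 1.79, where each slide held 1 of these 3 early tumors. Its difference between early and late tumors ran from 0.28 to 1.20 under the alternatives. Il2rb was 3.68, 4.77 and 2.13 in the same 3 tumors against 0.74 to 2.97 in late ones, a difference of 1.51 (SE 0.51, limma adjusted p = 1).

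MSU_M84R was unlike the other early tumors. Its Cd3d was -2.27, its Cd3g -0.94 and its Cd8a -4.23, while MSU_M86R had 0.67, 2.19 and 0.23 and MSU_M129L 0.25, 1.40 and -0.30. Its Cd8a signal was not well above background, so the value has only a bound on that array. The B cell mean was 3.44 in MSU_M86R, 0.77 in MSU_M129L and -0.43 in MSU_M84R, against -0.96 to 3.24 in late tumors, and the part of B cells or their companions in the difference was not tested. The test of whether onset acted differently in the 2 histologies gave no call for any of the 10 (limma interaction, adjusted p = 1), with 0.00479% of all genes called. For Cd3d the interaction was 1.83 (SE 1.01, 95% interval -0.22 to 3.87).

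Across the 4 dietary regimens none of the 10 differed beyond the spread between tumors. The overall test called 0.474% of genes in epithelial tumors, 99 of 20886, and the 10 had limma adjusted p-values from 0.553 (Prf1) to 0.993. Cd3e was at 0.50 ± 1.20 in HFD (SD, n = 8), 0.30 ± 0.47 in HFD-LFD (n = 7), 0.02 ± 0.44 in LFD (n = 8) and -0.15 ± 0.76 in LFD-HFD tumors (n = 6). The means of Cd3g had the same order but for a tie, at 1.42 ± 1.62, 0.50 ± 0.95, 0.50 ± 1.28 and -0.11 ± 2.01. Neighbours in this order lay well within their spread, and the HFD means held MSU_40R4A, MSU_57R and MSU_60L. Gzmb was at 1.09 ± 1.09 in HFD, 0.57 ± 1.48 in HFD-LFD, 1.44 ± 1.22 in LFD and 0.46 ± 1.09 in LFD-HFD tumors, and Foxp3 at 2.07 ± 1.19, 1.43 ± 0.78, 2.40 ± 1.02 and 1.60 ± 1.18.

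**Figure D4:**
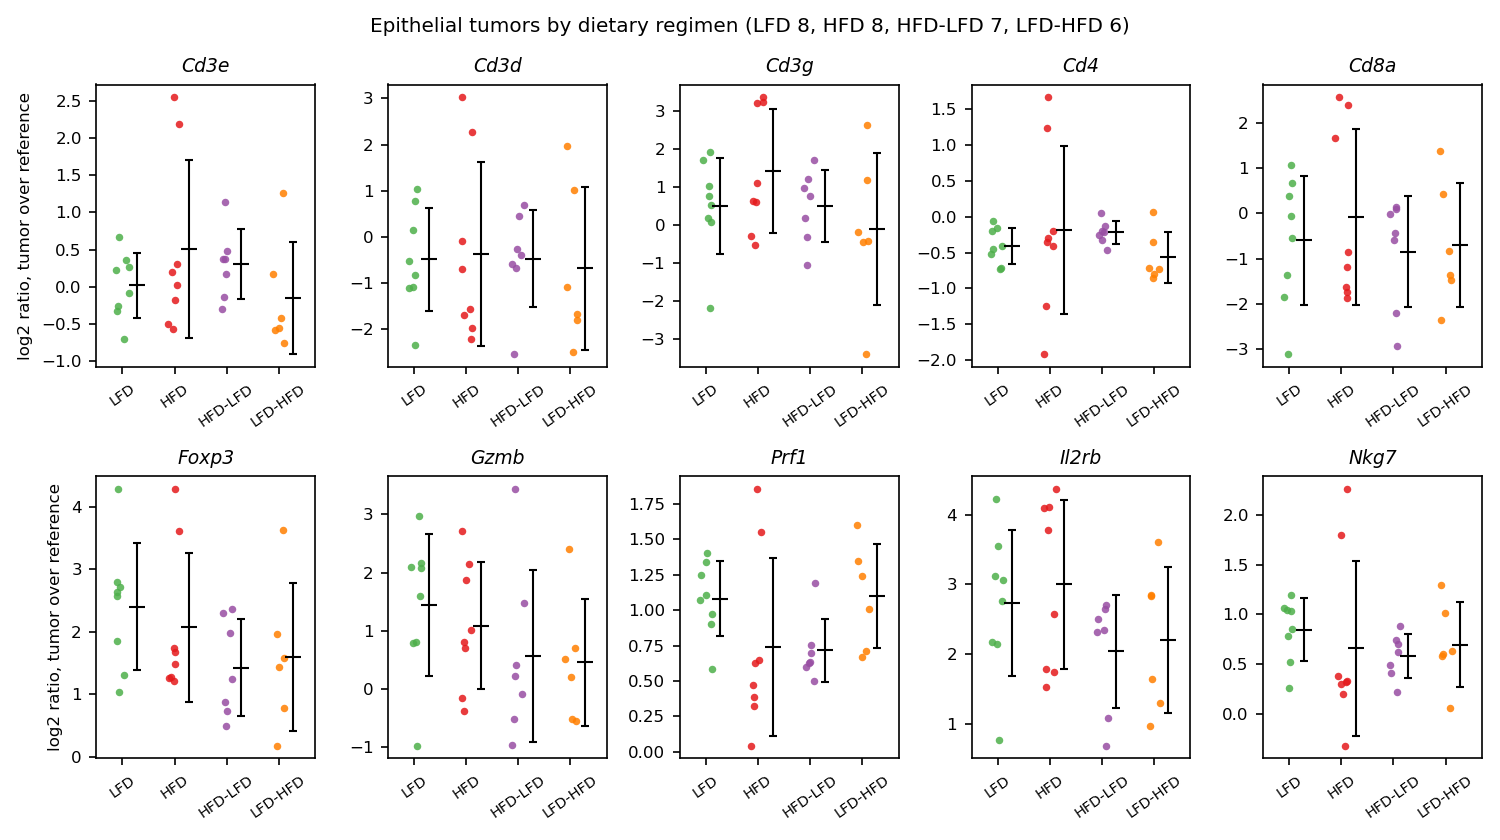
Log2 ratio of tumor over reference for each gene in the 29 epithelial tumors by regimen (LFD 8, HFD 8, HFD-LFD 7, LFD-HFD 6), with 1 point per tumor and bars for the mean and SD. The regimens overlap for all 10 genes, and the HFD tumors spread most for Cd3e, Cd3d and Cd4.

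Pairs of regimens gave the same picture for the 10 genes, none of which passed in any pair or reached an unadjusted p under 0.05 in epithelial tumors. All genes were called in 0% for HFD against LFD (1964 genes at an unadjusted p under 0.05), 1.25% for HFD-LFD against LFD, 0% for LFD-HFD against LFD (1366), 0.0287% for HFD-LFD against HFD, 0.263% for LFD-HFD against HFD and 0% for LFD-HFD against HFD-LFD (1059). The lowest limma adjusted p of the 10 over these pairs was 0.420, for Foxp3 in HFD-LFD against LFD. These pairs share their groups, and 7 of 8 slides held 1 regimen, so slide and regimen could hardly be told apart.

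High fat diet in puberty was then taken alone, in 21 tumors against 20. The comparison over all tumors called 0.00958% of genes, 2 in all, and none of the 10 (SAM called 32 genes and none of the 10). In epithelial tumors it called 0% of genes in limma, with 2020 at an unadjusted p under 0.05, and the 10 had adjusted p-values of 0.466 to 0.977. Prf1 was the gene nearest to a call, from 0.04 through 0.63 to 1.86 after pubertal HFD and from 0.59 through 1.09 to 1.60 after pubertal LFD. The means were 0.73 ± 0.47 (SD, n = 15) and 1.09 ± 0.30 (n = 14), a difference of -0.36 (SE 0.16, limma p = 0.0291, adjusted p = 0.466), and the groups overlapped.

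In spindle cell tumors Prf1 lay the other way, at 1.29 ± 0.34 after pubertal HFD and 0.98 ± 0.35 after pubertal LFD (n = 6 each), and the difference between the 2 histologies was 0.66 (SE 0.27, limma adjusted p = 0.301). That interaction called 0.445% of genes and none of the 10. High fat diet in adulthood called 0% of genes in epithelial tumors (limma, 840 at an unadjusted p under 0.05), with none of the 10 under 0.05. The 4 regimens within spindle cell tumors called 0% (limma, 780 genes and Il2rb at an unadjusted p under 0.05), and Il2rb was at 2.02 ± 0.41 in HFD, 3.37 ± 1.24 in HFD-LFD, 1.45 ± 0.64 in LFD and 2.74 ± 0.83 in LFD-HFD tumors (n = 3 each, adjusted p = 0.977). The test of onset across regimens called 0.00479% of genes and none of the 10.

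Between histologies, Cd8a, the co-receptor chain of killer T cells, was the only gene of the 10 that passed (adjusted p under 0.05), and it was lower in spindle cell tumors. All genes were called in 20.2%, and in 12.2% as lower, so 1 of 10 is a share near the background. Cd8a ran from -3.10 through -0.60 to 2.56 in epithelial tumors and from -4.23 through -1.88 to 0.23 in spindle cell tumors, with overlap. The means were -0.54 ± 1.48 (SD, n = 29) and -1.92 ± 1.32 (n = 12), a difference of -1.39 (SE 0.48, limma adjusted p = 0.0344). The tumor channel differed by -1.36 on the log2 scale and the reference channel by 0.03. Over the probes used for the 10 genes, the reference difference ran from -0.71 (Il2rb) to 0.10 (Foxp3). For Prf1 the tumor channel differed by -0.36 and the reference channel by -0.59, so its ratio was higher in spindle cell tumors.

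The Cd8a call depended on the probe. The brighter probe, used throughout, lies at chr6:71328911-71328970 on the plus strand of mouse build mm9 and was well above background in 24 of 29 epithelial and 6 of 12 spindle cell tumors. The other, at chr6:71323885-71323944, was so in 9 and 2. The probes followed each other from tumor to tumor (r = 0.80 over 29 epithelial and 0.78 over 12 spindle cell tumors), but the second gave a difference of -0.29 (adjusted p = 0.645) and the mean of both -0.84 (adjusted p = 0.149). A random block for the slide also ended the call (-1.39, adjusted p = 0.0875), as did leaving out any 1 of MSU_M118R, MSU_M18L, MSU_M33R, MSU_M63L or MSU_M84R, with adjusted p up to 0.0829.

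**Figure D5:**
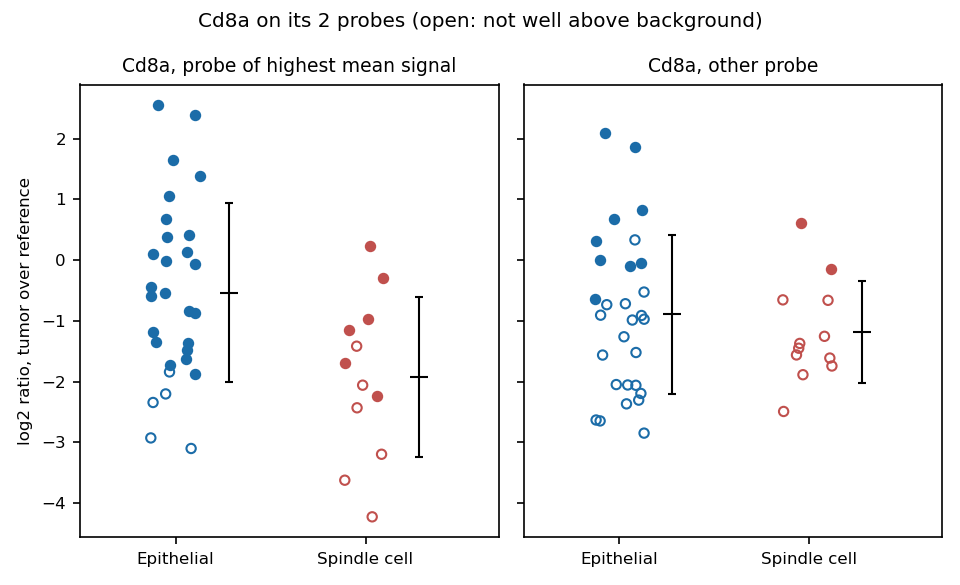
Log2 ratio of tumor over reference for the 2 probes of Cd8a in 29 epithelial and 12 spindle cell tumors, with open points where the tumor signal was not well above background. The brighter probe spreads lower in spindle cell tumors, most of whose lowest points are open, and the second probe shows a difference of only -0.29.

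The other genes stayed on the far side of the threshold. Cd3d was at -0.49 ± 1.45 in epithelial and -1.55 ± 1.23 in spindle cell tumors, a difference of -1.07 (SE 0.46, limma adjusted p = 0.0954), and SAM called it beside Cd8a. Cd4 was at -0.33 ± 0.64 and -0.73 ± 0.25, a difference of -0.40 (SE 0.19, adjusted p = 0.136), while its second probe gave -0.33 (adjusted p = 0.038). Cd3g (-0.88, adjusted p = 0.197) and Foxp3 (-0.61, adjusted p = 0.181) were lower in mean, and Cd3e differed by -0.22 (95% interval -0.72 to 0.28). Gzmb (0.51), Prf1 (0.23), Il2rb (-0.14) and Nkg7 (-0.06) had adjusted p-values of 0.262 to 0.845.

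Other lymphocyte genes between histologies were mixed. Of 19 measured T cell receptor and signalling genes 3 passed, a share below the 20.2% of all genes. Tcf7, a transcription factor of young and memory T cells, was lower (difference -1.14), as was Cd27, a costimulatory receptor (-1.11). Cd6, an adhesion receptor, was higher (0.89). In epithelial tumors Tcf7, Cd27 and Cd6 had r = 0.35, 0.72 and 0.79 with the CD3 mean. In spindle cell tumors r was -0.25, 0.90 and -0.06 in the same order. Which cells carried these 3 differences was not tested. Of 8 measured regulatory T cell genes 1 passed, Tnfrsf18, which was lower (-1.01). Of 5 dendritic cell markers 1 passed, Siglech, a receptor of plasmacytoid dendritic cells, which was lower (-0.61), and of 6 pan-leukocyte markers 1, Cd53, a leukocyte tetraspanin, which was higher (0.94). None of 10 cytotoxic and natural killer genes, 6 B cell, 9 macrophage, 5 lymph node stroma or 8 epithelial markers passed. The median difference was -0.57 over the T cell receptor list, -0.48 over the B cell list and -0.07 over all genes. Epithelial markers, which would tell the histologies apart, overlapped, with a median mean ratio of 1.34 in epithelial and 1.29 in spindle cell tumors, and MSU_M129L was lowest at -1.91. All 8 had lower means in spindle cell tumors, with a median difference of -0.60.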

How the data were processed

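RNA of 41 tumors was hybridised with Universal Mouse Reference RNA on 2-color Agilent arrays. Per the file headers, the authors made the intensity values with Agilent Feature Extraction 11.0.1.1 (29 arrays) and 10.5.1.1 (12 arrays), while the sample records name 8.5.1.1. The deposited processed intensity of each channel is background-subtracted and dye-normalized, and probe positions refer to mm9. The authors also deposited a matrix of log2 ratios, used here as an alternative.

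From the intensities, log2 of Cy5 over Cy3 was computed with outlier spots left out, spots of a probe averaged and the probe of highest mean signal taken per gene. Genes were tested where both channels exceeded 10 on at least 80% of arrays, 20886 of 30175. Comparisons used lmFit and eBayes of limma 3.58.1 in R 4.3.3, with Benjamini-Hochberg adjustment over all genes tested and a threshold of 0.10, or 0.05 for histology, after the false discovery rates of the study. Main effects of pubertal and adult diet in epithelial tumors were contrasts in the fit of the 4 regimens. Correlations used permutation tests with 100000 draws. The fits were tested on simulated data with 200 changed genes. Alternatives were other background correction and normalization, filters, probe rules, thresholds, slide blocks, the deposited matrix, SAM with 100 permutations, and leaving out tumors. Tumors were grouped by the sample labels. All 10 genes are named throughout, and of the other lists those past the threshold, at most 5 a list and comparison. Of the 10 genes most like the CD3 mean, 1 is not reported here. The genes and lists were chosen with earlier results of these data known. The 41 arrays limit the precision.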

Additional observations from a re-analysis of the deposited data

Results flagged for a closer look

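In 10 groups of 4 to 9 tumors the 10 genes gave 100 checks of whether the highest or lowest tumor lay apart from the others, by the gap to its neighbour as a share of the group's range. Chance flags about 1 in 20, and 10 of the 100 were flagged. In early HFD tumors Cd3d of MSU_40R4A was 2.28, with the next at -1.55. In late HFD tumors Cd4 of MSU_57R was 1.66 (next -0.19) and Nkg7 of MSU_57R was 1.80 (next 0.33). The labels of MSU_40R4A and MSU_57R are among those in doubt. In early LFD tumors Foxp3 of MSU_17R was 4.29 (next 2.72) and Nkg7 of MSU_31R was 0.78, below the next at 1.04. Over the 7 HFD-LFD tumors Cd3d of MSU_117L was -2.53 (next -0.67) and Prf1 of MSU_107R was 1.20 (next 0.75). Over the 8 LFD tumors Cd3g of MSU_13L was -2.20 (next 0.08). In the 9 late spindle cell tumors Cd3e of MSU_M76R was 0.78 (next 0.04) and Foxp3 of MSU_M118R was 1.69. Beside these, the B cell mean was 3.77 in MSU_40R4A, 4.12 in MSU_57R, 3.24 in MSU_M76R and -0.24 in MSU_M118R, and its part was not tested.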

How the results depend on the processing

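Of 1590 values of the 10 genes recomputed under the alternatives, 1577 kept their side of the threshold, 72 changed sign while called in neither fit, and 0 were called with opposite signs. Between histologies the number of the 10 genes called, 1 as reported, was 0 with slide as a random block or 1 tumor per label number, 2 at a threshold of 0.10, in SAM, without MSU_42L4B and MSU_60L, or without MSU_M32L, MSU_M76R and MSU_M86R, and 3 without MSU_42L4B, MSU_60L and MSU_M86R. It was 0 to 1 when single tumors were left out, being 0 without MSU_M118R, MSU_M18L, MSU_M33R, MSU_M63L or MSU_M84R. Cd3d was called at 0.10, in SAM, without MSU_42L4B, MSU_60L and MSU_M86R (-1.39) and without MSU_M32L, MSU_M76R and MSU_M86R (-1.48), and Cd4 without MSU_42L4B and MSU_60L (-0.49), with the mean over probes (-0.36) and with the other probe (-0.33). Without MSU_40R4A, MSU_57R and MSU_65R, 1 of the 10, Cd4, differed in its onset effect between regimens (adjusted p = 0.0194), in a fit that called 1642 genes against 1. Why these values moved was not tested.

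Counts over all genes moved more. Under the alternatives and single tumors left out they were 0 to 434 for onset in epithelial tumors (30 as reported), 0 to 217 for regimen (99), 0 to 32 for pubertal diet over all tumors (2), 0 to 186 for pubertal diet in epithelial tumors (0), 2547 to 7894 for histology (4217), 0 to 12 for regimen in spindle cell tumors (0), 0 to 3 for onset by histology (1), 6 to 2358 for pubertal diet by histology (93) and 0 to 1642 for onset by regimen (1). Those for adult diet and for onset in spindle cell tumors were 0 throughout. The consensus correlation within slides was 0.111 for epithelial onset and 0.0886 for histology. Leaving out MSU_40R4A, MSU_57R and MSU_65R, leaving out MSU_42L4B and MSU_60L, and the other probes were chosen after seeing the data, as was taking the count over the 10 genes as the value compared. No paired analysis was possible because no groups compared share more than 1 label number. Cd8a signal was well above background in 30 of 41 tumors, which limits its comparison.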
